A study of Homo sapiens with 6 samples.

Results

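The transcripts of 10 genes of the SR family of splicing factors were followed in HCT116 cells, a human colorectal cancer cell line. The members were SRSF1, SRSF2, SRSF3, SRSF4, SRSF5, SRSF6, SRSF7, SRSF10, SRSF11 and TRA2B, taken by gene symbol from a list drawn up with earlier results of these data known. They account for 10 of the 19871 symbols and for 48 of the 92866 mRNA transcripts listed. Of the 48 transcripts, 42 have an Ensembl identifier, 6 were assembled from the reads, and 2 were at 0 in every group. Strand-specific libraries of HCT116 RNA had been made from a negative control (NC), from cells transfected with a GAS5 plasmid (GAS5) and from cells transfected with YAP-specific siRNA (siYAP), with 2 libraries in each of the 3 groups. All 3 groups share the line and its medium, which is McCoy's 5a with fetal bovine serum per the labels and an RPMI medium with serum per the methods of the study. What NC cells received, how long after transfection the cells were taken and which YAP siRNA was used are not given in the sources used here, and a plasmid and an siRNA against a shared control also differ in the kind of nucleic acid delivered. The question was what each treatment did to the RNA of the transfected cells, and here it is asked of the SR factors, by gene and by transcript.

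The deposited tables hold a single value per group, averaged by the authors over its libraries, so no spread between libraries could be computed, no test could be run and no difference below can be set against replicate error. Intervals are 95% Wilson intervals on the counts behind 2 libraries. They cover counting error only, and neither the spread between cultures nor the error of assigning reads to overlapping transcripts. A log2 fold change was taken after TMM scaling with a prior count of 2, and values at 2-fold or more in either direction are given as past 2-fold. Both comparisons share NC, so an error in an NC value moves both of them.

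SR proteins bind exons through RNA recognition motifs and recruit the spliceosome through domains rich in arginine and serine, called RS domains. They help to choose splice sites, and some accompany mRNA out of the nucleus. SRPK and CLK kinases phosphorylate the RS domains, and the transportin TNPO3 carries the phosphorylated proteins into the nucleus. SR genes are known for controlling their own output by splicing, often through exons that bring in an early stop codon and send the transcript to nonsense-mediated decay. GENCODE 29 lists 117 transcripts for the 10 genes. The 42 described here are all annotated as protein coding, while the 22 annotated for nonsense-mediated decay, the 33 with a retained intron and the 20 processed transcripts are not analysed here. A gene sum below is therefore a sum over protein-coding and assembled transcripts.

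The products of these transcripts differ at a few places, and the sequences at the places on which the results turn are printed here, 5′ to 3′ in the sense of the gene, from the GENCODE 29 transcripts (GRCh38). SRSF1 (chr17:58003360-58007346, minus strand) has 3 Ensembl transcripts with counts above 0, besides an assembled one. SRSF1-201, the 747-base coding sequence of the usual protein, and SRSF1-205 are identical over their first 553 coding bases, after which SRSF1-205 reads into the intron that SRSF1-201 removes. The capitals are the bases after the point of parting, at chr17:58005576-58005599 in exon 4 of SRSF1-201 and at chr17:58005776-58005799 in exon 3 of SRSF1-205.
SRSF1-201: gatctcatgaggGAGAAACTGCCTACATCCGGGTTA
SRSF1-205: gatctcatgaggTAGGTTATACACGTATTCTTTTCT
The coding sequence of SRSF1-205 ends 606 bases from its start and so lacks the RS domain. SRSF1-208 follows SRSF1-201 for 739 coding bases and then splices to a further exon, so that only the end of the protein differs. Its capitals lie at chr17:58005019-58005041 in exon 5, and those of SRSF1-201 at chr17:58005406-58005413 in exon 4.
SRSF1-208: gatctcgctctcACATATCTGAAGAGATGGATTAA
SRSF1-201: gatctcgctctcGTACATAA

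SRSF7 (chr2:38743599-38751494, minus strand) varies at a stretch of 9 coding bases at the end of exon 5 (chr2:38748047-38748055), present in SRSF7-201 and absent from SRSF7-202. It varies again at a 36-base exon, exon 7 of SRSF7-201 (chr2:38746144-38746179), which SRSF7-209 and SRSF7-210 skip. Capitals mark the bases that only SRSF7-201 of each pair has.
SRSF7-201, 9 bases: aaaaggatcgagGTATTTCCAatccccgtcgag
SRSF7-202, 9 bases: aaaaggatcgagatccccgtcgag
SRSF7-201, 36-base exon: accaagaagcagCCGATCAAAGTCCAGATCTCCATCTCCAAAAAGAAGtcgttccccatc
SRSF7-209, 36-base exon: accaagaagcagtcgttccccatc
SRSF10 (chr1:23964804-23980927, minus strand) has a long and a short product. SRSF10-203, with 786 coding bases, and SRSF10-207, with 549, part after 489 coding bases, where each reads on in a last exon that the other leaves out. Capitals mark the bases after that point, at chr1:23971415-23971438 for SRSF10-203 and at chr1:23967699-23967722 for SRSF10-207.
SRSF10-203, long: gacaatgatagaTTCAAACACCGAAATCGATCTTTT
SRSF10-207, short: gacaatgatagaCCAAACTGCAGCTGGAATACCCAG
TRA2B (chr3:185915906-185938136, minus strand) has RS domains on both sides of its RNA recognition motif. TRA2B-205 encodes the complete protein in 867 bases. The start codon of TRA2B-203 lies 300 coding bases further on, which leaves out the RS domain before the motif. The start codons are in capitals, at chr3:185937858-185937860 for TRA2B-205 and at chr3:185925494-185925496 for TRA2B-203.
TRA2B-205: ATGagcgacagcggcgagcagaactacggc
TRA2B-203: ATGtctactcgcaggcgtcatgttgggaat

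**Figure D1:**
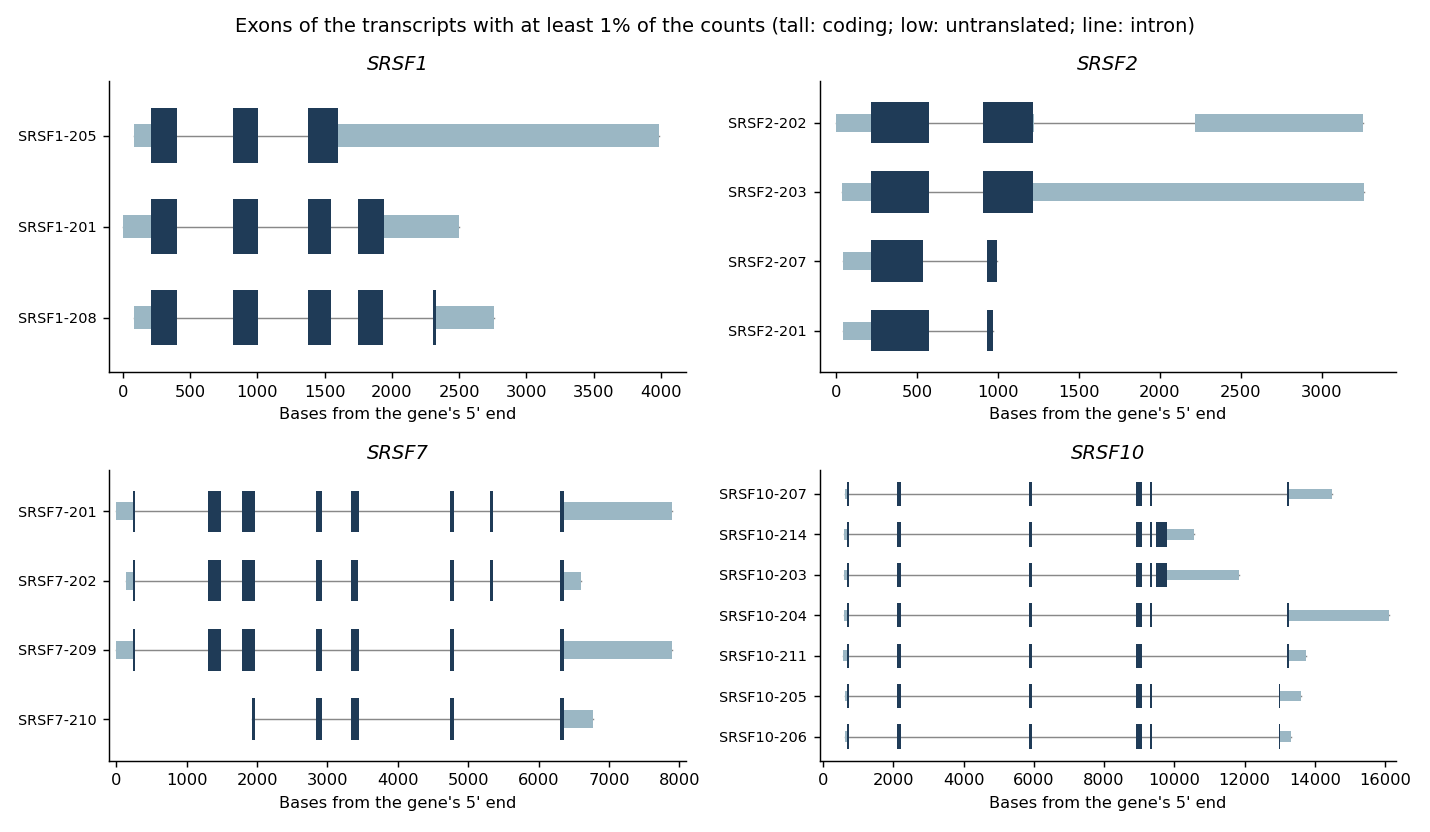
Exon structure of the transcripts of SRSF1, SRSF2, SRSF7 and SRSF10 with at least 1% of the counts of their gene in any group. The x axis is the distance in bases from the 5′ end of the gene, tall blocks are coding, low blocks are untranslated and lines are introns. SRSF1-205 and SRSF2-203 run through an intron that SRSF1-201 and SRSF2-202 remove, SRSF7-209 and SRSF7-210 lack the 36-base exon, and the long and short products of SRSF10 end on different exons.

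By level, the family fell into an upper and a lower set in NC. FPKM summed over the transcripts of a gene, a level per length, was 97.5 for SRSF6, 92.6 for SRSF3, 89.0 for SRSF2, 84.5 for SRSF1 and 77.8 for TRA2B. The lower set ran from 44.6 for SRSF10 over 44.3 for SRSF11, 43.7 for SRSF5 and 33.9 for SRSF4 to 31.2 for SRSF7. Whether neighbours in this order differ beyond the spread between libraries could not be assessed. In siYAP the upper set was the same and ran from 60.0 for TRA2B to 89.4 for SRSF6. In GAS5 the order within the upper set differed, with SRSF2 at 149.1, SRSF3 at 110.7, SRSF1 at 104.9, TRA2B at 103.3 and SRSF6 at 91.7. SRSF7, which was at the foot of the list in NC and in siYAP, stood above SRSF11, SRSF5 and SRSF4 in GAS5, at 50.3 FPKM.

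In the comparison of GAS5 with NC, no member passed 2-fold at the level of the gene (0 of 10, against 3.09% of the 13379 gene sums kept by the low-count filter). The members' median log2 fold change was 0.30, while the median over all gene sums was 0.00. SRSF2, a nuclear SR protein that activates exons, had 4157 mean counts in NC against 6324 in GAS5, a log2 fold change of 0.72 (0.68 to 0.76). SRSF7, which has a zinc knuckle beside its RNA recognition motif and also serves in mRNA export, had 1331 in NC and 1951 in GAS5, a log2 fold change of 0.67 (0.60 to 0.74). These are the members past 1.5-fold, 2 of 10, against 4.80% of all gene sums and 1.12% of the 5347 gene sums with a mean of at least 1000 counts. SRSF2 lay above 96.5% of all gene sums in this comparison and SRSF7 above 96.1%.

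TRA2B, which activates exons rich in GAA repeats, followed with 3556 mean counts in NC against 4669 in GAS5, a log2 fold change of 0.51 (0.47 to 0.56). SRSF3, the smallest SR protein and an adaptor for export of mRNA, had 6615 and 7964.5, a log2 fold change of 0.39 (0.35 to 0.42). SRSF10, known to repress splicing when its RS domain is dephosphorylated, had 2311 and 2641, a value of 0.31 (0.25 to 0.37). SRSF1, the founding member of the family, had 5232 and 5886, a value of 0.29 (0.25 to 0.33). These 4 genes were 1.22-fold to 1.42-fold higher in GAS5, with counting intervals well above 0.

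The remaining 4 members were close to NC in the GAS5 group. SRSF5 had 1670 mean counts in NC against 1644 in GAS5 (log2 fold change 0.10), SRSF11 had 2254 and 2209 (0.09), SRSF4 had 2072 and 1942 (0.03), and SRSF6 had 10060.5 and 9055.5 (-0.03). In all, 9 of 10 members were above 0, against 50.2% of all gene sums, but SRSF4 was below 0 under scaling by total counts (-0.0013), by the ratio of mean FPKM (-0.01) and without its assembled transcripts (-0.05), where SRSF6 was at 0.00. Of the related lists described further on, 14 of 23 hnRNP genes and 14 of 21 other SR and SR-related genes were above 0. So were 7 of 10 early spliceosome genes and 7 of 9 SR kinases and transport factors. The sum over all members was 39258 mean counts in NC against 44285 in GAS5, a log2 fold change of 0.29 (0.28 to 0.31).

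In the comparison of siYAP with NC, again no member passed 2-fold (0 of 10, against 2.26% of the 13308 gene sums kept), and no member passed 1.5-fold lower, which 5.61% of all gene sums and 2.75% of those with a mean of at least 1000 counts did. All 10 members were below 0, under each of the scalings tried, against 50.03% of all gene sums. Most genes of the related lists described further on were below 0 as well. These were 20 of 23 hnRNP genes, 17 of 21 other SR and SR-related genes, 7 of 10 early spliceosome genes and 6 of 9 SR kinases and transport factors. The members' median log2 fold change was -0.26, and that of all gene sums was 0.00. In bulk RNA, fewer cells with a transcript and less of it per cell cannot be told apart.

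SRSF11, which also carries the name p54, was lowest relative to NC, with 2254 mean counts in NC against 1533 in siYAP, a log2 fold change of -0.47 (-0.54 to -0.40). SRSF5 had 1670 and 1147, a value of -0.46 (-0.53 to -0.38), and SRSF10 had 2311 and 1632, a value of -0.42 (-0.48 to -0.35). SRSF4 followed with 2072 and 1544, a value of -0.34 (-0.41 to -0.27). These 4 genes were 1.26-fold to 1.39-fold lower in siYAP, and all belong to the lower set by level. SRSF7 (1331 and 1049.5 mean counts) and TRA2B (3556 and 2806) were both at -0.26.

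The most abundant members differed least from NC in siYAP. SRSF1 had 5232 mean counts in NC against 4345 in siYAP (log2 fold change -0.18), SRSF2 had 4157 and 3576 (-0.13), SRSF3 had 6615 and 5805 (-0.10), and SRSF6 had 10060.5 and 8993.5 (-0.08). SRSF3 was at -0.21 by the ratio of mean FPKM. The sum over all members was 32430 mean counts in siYAP, a log2 fold change of -0.19 (-0.21 to -0.18). SRSF2 and SRSF7, highest relative to NC in the GAS5 group, were thus slightly lower than NC in siYAP, and SRSF5, SRSF11 and SRSF4, lowest or near it in siYAP, were close to NC in GAS5. Each treatment is set here against the same NC value, and the difference between the treatments was not tested.

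**Figure D2:**
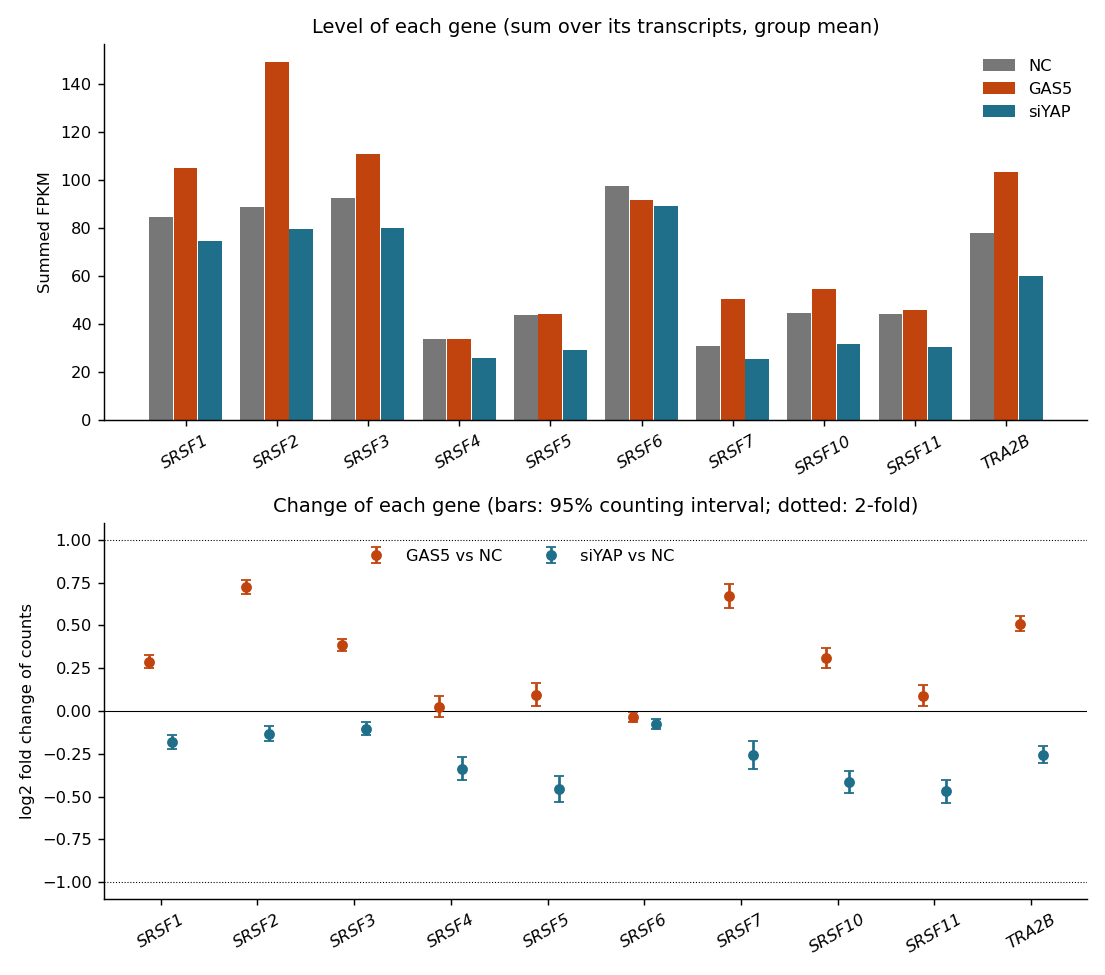
Upper panel, FPKM summed over the transcripts of each gene in NC, GAS5 and siYAP, where each bar is the authors' group mean. Lower panel, log2 fold change of summed counts for GAS5 vs NC and siYAP vs NC with 95% counting intervals and dotted lines at 2-fold. SRSF2, SRSF7 and TRA2B stand highest in GAS5 vs NC, between 0.51 and 0.72, and all 10 siYAP points lie below 0, down to -0.47 for SRSF11.

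At the level of transcripts, 28 of the 48 held at least 5% of the counts of their gene in some group, and these spanned log2 fold changes of -0.23 to 0.85 in GAS5 and -0.81 to 0.12 in siYAP, so none of them passed 2-fold. In GAS5 20 of the 28 were above 0, and in siYAP 25 were below 0. The 28 make up most of the gene sums given above, and the like share over all transcripts was not computed. The transcript with the largest share was the same in all 3 groups for 9 members, and how many of all symbols keep their leading transcript was not computed. The exception was SRSF10, led by SRSF10-207 in NC (26.9% of its counts) and GAS5 (28.7%) and by SRSF10-214 in siYAP (27.5%). A share of counts favors long transcripts, which give more reads per molecule. Per length, by FPKM, the leading transcript was another one for 4 members, SRSF1, SRSF7 and TRA2B in every group and SRSF10 in NC, so a share of counts below is not a share of molecules. The shares of the forms compared below lay on the same side of NC by FPKM as by counts, except that of SRSF5-217 in GAS5 (64.3% of FPKM against 64.0% in NC).

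A share shift, the percentage points of a gene's counts that would have to move between its transcripts to turn the NC shares into those of the treated group, was computed for each symbol with at least 2 transcripts and at least 50 mean counts in every group. No member reached 20 points in either comparison. Among all 10504 such symbols 10.0% did in GAS5 and 10.6% in siYAP, among the 5975 with at least 5 transcripts 13.1% and 14.2%, and among the 4937 with a mean of at least 1000 counts 2.96% and 3.02%. The members' median shift was 4.06 points in GAS5 and 3.98 in siYAP, close to the medians of 3.79 and 3.56 for the symbols with at least 1000 counts. On shares of counts, the largest shifts among the members were those of SRSF2 (7.95 points in GAS5 and 7.05 in siYAP) and SRSF10 (7.02 and 6.53). The order differed on shares of FPKM. In GAS5 it was SRSF10 (8.10), TRA2B (6.91), SRSF5 (6.02) and SRSF3 (5.50) that had the largest shifts by FPKM, with SRSF2 at 4.88. In siYAP it was SRSF5, at 8.71 points by FPKM against 4.15 by counts, ahead of SRSF10 (6.54) and SRSF2 (5.92).

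**Figure D3:**
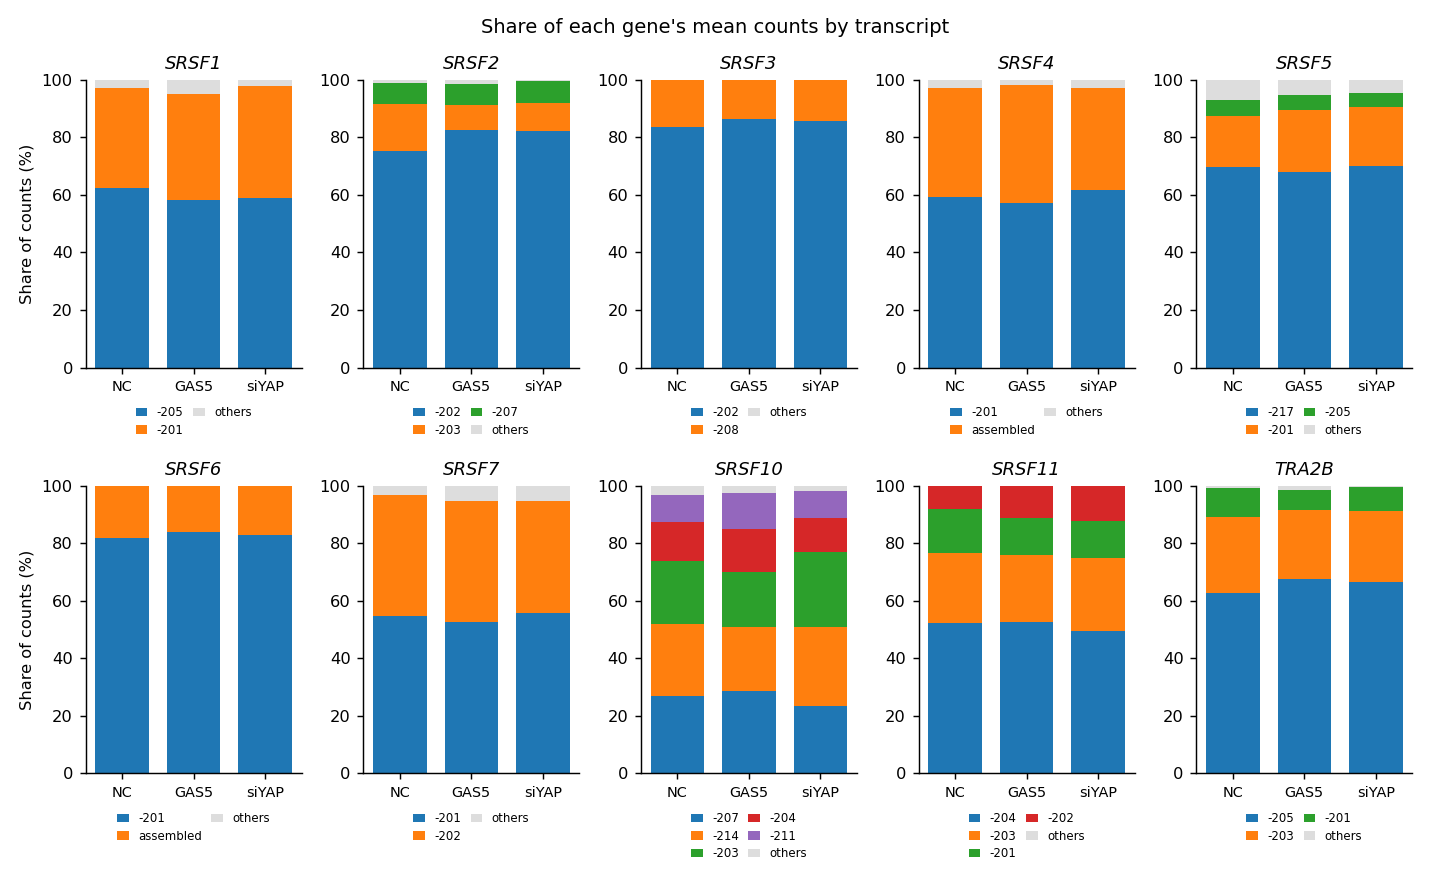
Share of each gene's mean counts by transcript, in percent, in NC, GAS5 and siYAP. Transcripts with at least 5% in any group have a color and are named by the number that follows the gene symbol in GENCODE, and gray holds the rest. The leading transcript of SRSF2, SRSF2-202, takes 75.4% in NC and more than 82% in both treated groups, and the bars of SRSF10 move in opposite directions in GAS5 and siYAP.

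For SRSF1, the intron-retaining SRSF1-205, of 3117 bases, had the most counts in every group. It had 3266 mean counts in NC, against 3427 in GAS5 and 2553 in siYAP, which are 62.4% (61.5 to 63.3), 58.2% (57.3 to 59.1) and 58.8% (57.7 to 59.8) of the counts of the gene. SRSF1-201, the usual product, of 1513 bases, had 1808, 2171 and 1704 mean counts, or 34.6%, 36.9% and 39.2%. Per length SRSF1-201 led in every group, with 43.1 FPKM in NC and 55.0 and 42.015 in GAS5 and siYAP, against 37.8, 42.2 and 30.6 for SRSF1-205, whose share of FPKM was 44.8%, 40.2% and 40.9%. Both treated groups thus had a smaller share of SRSF1-205 than NC. In siYAP SRSF1-201 had a log2 fold change of 0.03 while SRSF1-205 was at -0.24. SRSF1-205 has 1428 exonic bases that no other listed Ensembl transcript of the gene covers, 45.8% of its length. The smaller part of these bases is the intron that SRSF1-201 removes. The larger part lies beyond the end of the other listed Ensembl transcripts of the gene. A read there does not show that the intron was kept, so the share of SRSF1-205 does not measure intron retention alone. The overlapping gene AC015813.2 shares 85.1% of the 50-base stretches of SRSF1-201 and 58.5% of those of SRSF1-205, so reads from that gene cannot be told apart there by sequence.

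SRSF2 (chr17:76734115-76737374, minus strand) has a pair of transcripts with the same 666 coding bases that differ in the untranslated region after the stop codon, where SRSF2-202 removes a last intron that SRSF2-203 keeps. SRSF2-202 had 3134 mean counts in NC, against 5229.5 in GAS5 and 2937 in siYAP. SRSF2-203 had 676.5, 533.2 and 355.3. The form with the intron thus had fewer counts than NC in both treated groups, with log2 fold changes of -0.23 (-0.35 to -0.12) in GAS5 and -0.81 (-0.94 to -0.68) in siYAP. The form without it was at 0.85 (0.80 to 0.89) in GAS5 and at 0.02 (-0.03 to 0.07) in siYAP. The share of SRSF2-203 was 16.3% (15.5 to 17.1) in NC, against 8.43% (7.96 to 8.93) in GAS5 and 9.94% (9.27 to 10.7) in siYAP, and the interval of NC overlaps neither of the others. These intervals hold counting error only, and how often such intervals part over all genes was not computed. SRSF2-203 has 999 exonic bases of its own. SRSF2-207, whose coding sequence is incomplete in the annotation, held 7.26% to 7.54% in the 3 groups.

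SRSF3 (chr6:36594353-36605600, plus strand) makes the same 495-base product from a transcript with a long 3′ UTR of 3611 bases, SRSF3-202, and from a transcript with a short 3′ UTR of 208 bases, SRSF3-208. SRSF3-202 had 5523 mean counts in NC, against 6872 in GAS5 and 4964 in siYAP. SRSF3-208 had 1092, 1092 and 840.8, and its share was 16.5% (15.9 to 17.2) in NC, against 13.7% (13.2 to 14.3) in GAS5 and 14.5% (13.9 to 15.1) in siYAP. Per length the forms were nearly level in NC, with 45.4 FPKM for SRSF3-208 and 47.2 for SRSF3-202, and the share of SRSF3-208 by FPKM was 49.0% in NC, against 43.5% in GAS5 and 45.1% in siYAP. In GAS5 the log2 fold change was 0.11 for the short form and 0.42 for the long form. These transcripts also begin with different first exons. The 164 exonic bases that only SRSF3-208 has are its first exon, and its 3′ UTR lies within that of SRSF3-202. The shares therefore cannot tell a difference in the 3′ UTR from a difference in the first exon.

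For SRSF7, the form without the 9 coding bases, SRSF7-202, had 559.4 mean counts in NC, against 817.8 in GAS5 and 406.7 in siYAP. Its share was 42.03% (40.2 to 43.9) in NC and 41.9% (40.4 to 43.5) in GAS5, so both forms were higher in GAS5 by like amounts, 0.65 for SRSF7-202 and 0.60 for SRSF7-201 on the log2 scale. In siYAP the share was 38.7% (36.7 to 40.8), and its interval overlaps that of NC. By FPKM SRSF7-202 had the larger part, 61.8% in NC, against 59.3% in GAS5 and 56.7% in siYAP. The 3′ UTR differs as well, with 240 bases in SRSF7-202 against 1534 in SRSF7-201. Neither has an exonic base that no other listed Ensembl transcript of the gene covers. The shares of these transcripts therefore do not measure the use of the 9 bases alone. The transcripts that skip the 36-base exon together held 3.33% (2.72 to 4.10) of the counts in NC, against 5.46% (4.79 to 6.22) in GAS5 and 5.46% (4.58 to 6.54) in siYAP. Both treated groups lay above NC on this share. In the authors' estimates the difference lay with SRSF7-210, described further on, as SRSF7-209 had 23.2, 23.2 and 17.9 mean counts. All exons and junctions of SRSF7-210, whose coding start is missing in the annotation, lie within SRSF7-209. No read is therefore particular to SRSF7-210, and the split between them was not checked.

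SRSF10 showed opposite displacements in the treated groups. The transcripts of the long product, SRSF10-203 and SRSF10-214, together had 1086 mean counts in NC, against 1086 in GAS5 and 872.8 in siYAP. The 5 transcripts of short products had 1225, 1555 and 758.7. The long product thus held 47.0% (45.6 to 48.4) of the counts in NC, against 41.1% (39.8 to 42.4) in GAS5 and 53.5% (51.8 to 55.2) in siYAP, and the 3 intervals do not overlap. As for SRSF2, the intervals hold counting error only, so this does not set the groups apart beyond the spread between cultures. The short products were at 0.45 in GAS5 and -0.58 in siYAP on the log2 scale and the long product at 0.11 and -0.20, so the change relative to NC was larger for the short products in both comparisons. SRSF10 transcripts also differ by a CAG triplet, and the transcripts with it held 40.1% of the counts in NC, against 39.7% in GAS5 and 41.0% in siYAP, with overlapping intervals.

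TRA2B counts were led by TRA2B-205, the complete product on a transcript of 2952 bases, with 2231 in NC, against 3160 in GAS5 and 1868 in siYAP. Its share was 62.7% (61.6 to 63.9) in NC, against 67.7% (66.7 to 68.6) in GAS5 and 66.6% (65.3 to 67.8) in siYAP. The product without the RS domain before the motif, TRA2B-203, had 940.7, 1115 and 694.0 mean counts, or 26.5% (25.4 to 27.5), 23.9% (23.0 to 24.8) and 24.7% (23.6 to 25.9). For TRA2B-203 the intervals of NC and siYAP overlap. Per length TRA2B-203, of 976 bases, led in every group, with 34.9 FPKM in NC and 43.8 and 26.5 in GAS5 and siYAP, against 27.3, 41.1 and 23.6 for TRA2B-205. The annotated TRA2B-203 ends at its stop codon and has no exonic base of its own, while TRA2B-205 has a 3′ UTR of 1809 bases. No read from a 3′ UTR could thus count for TRA2B-203. Which product had more molecules cannot be read from these values. TRA2B-201, whose coding start is missing in the annotation, held 10.1% in NC, against 7.04% in GAS5 and 8.25% in siYAP.

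SRSF11 (chr1:70205682-70253052, plus strand) was led by SRSF11-204, a transcript with an incomplete coding end, at 52.1% in NC, against 52.7% in GAS5 and 49.7% in siYAP. The complete products, SRSF11-202 and SRSF11-203, held 32.7% (31.4 to 34.1) in NC, against 34.3% (32.9 to 35.7) in GAS5 and 37.3% (35.6 to 39.1) in siYAP. SRSF11-202 was the only transcript of the gene with no lower count in siYAP. It had 186.7 mean counts in NC, against 247.0 in GAS5 and 187.1 in siYAP. SRSF11-203 had 551.3, 509.8 and 385.3. This transcript lacks a CAG triplet of SRSF11-202 and also has a shorter 3′ UTR, of 812 bases against 2247, so the counts do not measure the triplet alone. SRSF11-201, with a later start, had 341.6, 289.2 and 199.3.

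SRSF5 (chr14:69726900-69772005, plus strand) was led by SRSF5-217, with 69.7% of the counts in NC, against 67.9% in GAS5 and 70.1% in siYAP. SRSF5-201, which encodes the same 819 bases, held 17.6%, 21.4% and 20.5%. SRSF5-205, which lacks 9 of the coding bases, held 5.59% (4.87 to 6.43), 5.24% (4.52 to 6.05) and 4.84% (4.04 to 5.80), with overlapping intervals. SRSF4 (chr1:29147743-29181987, minus strand) had SRSF4-201 at 59.3%, 57.2% and 61.7%, and an assembled transcript at 38.0%, 41.1% and 35.6%. For SRSF6 (chr20:43457928-43464247, plus strand), SRSF6-201 held 82.0%, 84.0% and 82.9%, and an assembled transcript held the rest. The files give no structure for assembled transcripts. The ratio of their counts to their FPKM, calibrated on 10842 Ensembl transcripts with a median error of 4.3 bases, implies lengths of 2052 bases for that of SRSF4 and 2287 bases for that of SRSF6.

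**Figure D4:**
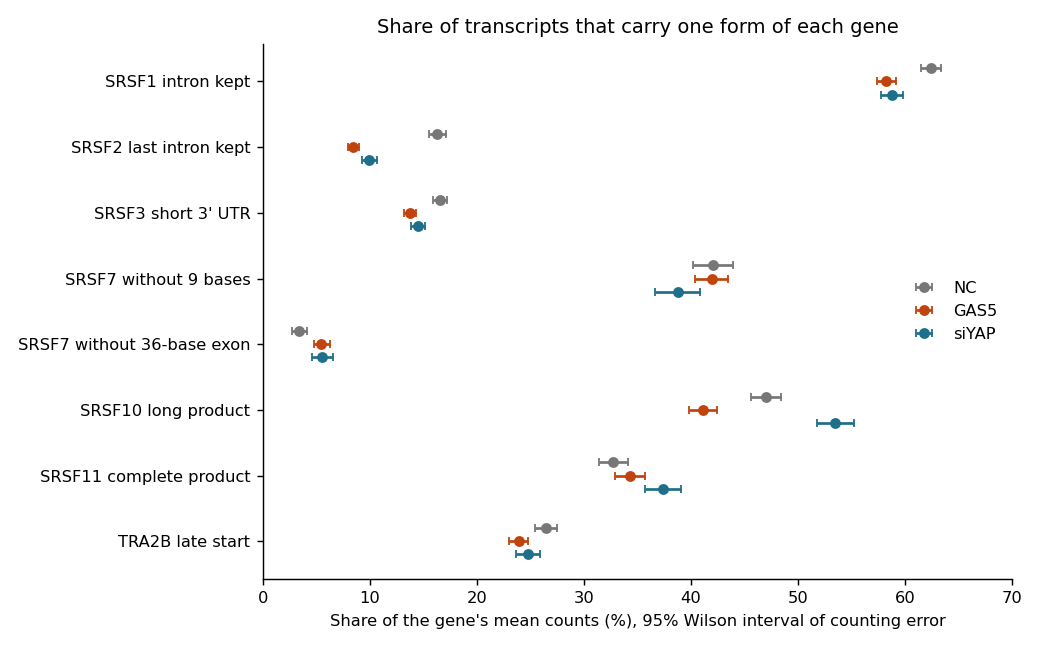
Share of the mean counts of a gene, in percent, held by transcripts with the named form, in NC, GAS5 and siYAP, with 95% Wilson intervals of counting error. For SRSF10 the long product runs from 41.1% in GAS5 to 53.5% in siYAP with NC between them at 47.0%, and for SRSF2 the form that keeps the last intron is at 16.3% in NC and below 10% in both treated groups.

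Past 2-fold were minor transcripts. In GAS5, 5 of the 42 member transcripts kept by the filter were past 2-fold higher, against 10.6% of all 41340 transcripts, and 1 was past 2-fold lower, against 9.48%. In siYAP, 0 of 41 were past 2-fold higher, against 9.41% of 40876, and 5 were past 2-fold lower, against 11.4%. The members' shares are near the background for higher in GAS5 and for lower in siYAP, and below it for the other direction. All 11 of these values belong to transcripts with under 5% of the counts of their gene in every group.

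SRSF7-210, which skips the 36-base exon, had 21.1 mean counts in NC, against 83.3 in GAS5 and 39.4 in siYAP, a log2 fold change of 1.99 (1.61 to 2.59) in GAS5. SRSF1-208, with the alternative end, had 58.4, 203.7 and 48.0, a value of 1.87 (1.61 to 2.20) in GAS5, and its share of SRSF1 counts was 1.12% in NC, against 3.46% in GAS5 and 1.11% in siYAP. These are the member transcripts furthest above NC in GAS5, and in siYAP SRSF1-208 was at -0.16. TRA2B-204, with a missing coding start, had 17.5, 47.2 and 11.7 (1.44 in GAS5).

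SRSF2-201, with an incomplete coding end, had 36.4 mean counts in NC, against 77.2 in GAS5 and 5.66 in siYAP, so that it was past 2-fold in opposite directions, at 1.15 (0.79 to 1.59) in GAS5 and at -2.23 (-3.52 to -1.72) in siYAP. SRSF5-202, which ends early in the gene, had 10.2 in NC and 24.3 in GAS5 (1.21). It was at 0 in siYAP, which at a floor of 3 counts over the group makes it at least 6.27-fold lower than in NC, although the filter did not keep it there. SRSF10-206, a short product, was past 2-fold lower in both treated groups, with 34.9 mean counts in NC, 9.79 in GAS5 (-1.55, -2.41 to -0.99) and 5.32 in siYAP (-2.24, -3.46 to -1.65).

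Past 2-fold lower in siYAP were also SRSF5-204, with 62.9 mean counts in NC, against 29.2 in GAS5 and 18.5 in siYAP (-1.55), SRSF5-209, with 24.8, 21.5 and 10.2 (-1.03), and an assembled transcript of SRSF1, with 99.6, 83.4 and 40.2 (-1.16). SRSF5-204 and SRSF5-209 encode products cut short, of 300 and 375 coding bases. All 6 transcripts past 2-fold in GAS5, and 2 of the 5 in siYAP, have no exonic base that another listed Ensembl transcript of their gene does not also cover. Of them SRSF1-208, SRSF2-201 and TRA2B-204 have a junction that no other listed Ensembl transcript of the gene has. SRSF7-210, SRSF5-202 and SRSF10-206 have no such junction. SRSF5-202 and SRSF10-206 each combine junctions that the other listed Ensembl transcripts have only apart. Only a fragment that spans both would be particular to them. Apart from such fragments, the counts of these transcripts rest on how the authors' estimation divided shared reads.

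**Figure D5:**
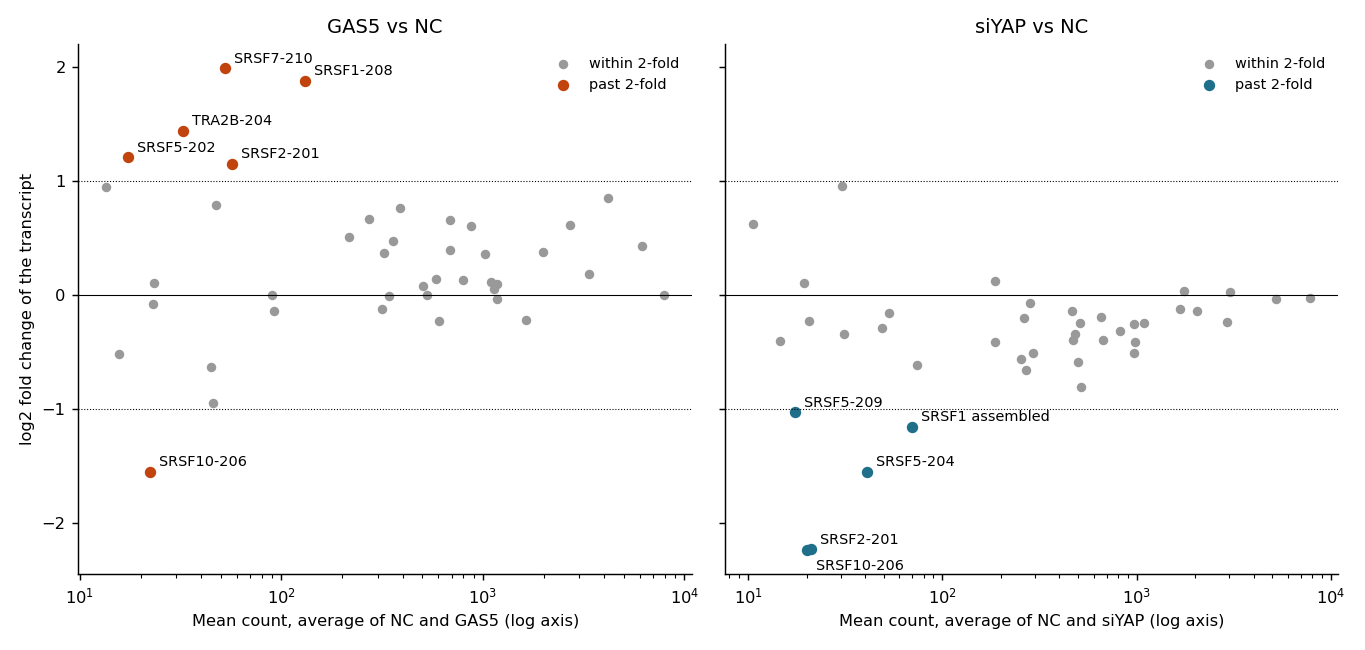
Log2 fold change of each member transcript kept by the filter against its mean count, averaged over NC and the treated group on a log axis, for GAS5 vs NC (left) and siYAP vs NC (right). Dotted lines mark 2-fold and colored points lie past it. The transcripts past 2-fold all have low counts, and those above 1000 mean counts on this axis lie between -0.25 and 0.85.

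The factors that act on SR proteins were also within 2-fold. Of 9 SR kinases and transport factors, 0 passed 2-fold in either comparison, and their median log2 fold change was 0.04 in GAS5 and -0.09 in siYAP. The furthest from NC in GAS5 were NXF1, the mRNA export receptor, with 1719.5 mean counts in NC against 2504 in GAS5 (0.66), and CLK1, with 769.0 and 1068 (0.59). In siYAP they were SRPK1, with 3707 in NC and 2487 in siYAP (-0.49), and CLK3, with 1806.5 and 2046 (0.26). The kinases CLK1 and SRPK1 phosphorylate RS domains.

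Of 22 other SR and SR-related genes, 21 passed the filter and 0 passed 2-fold, with medians of 0.12 in GAS5 and -0.17 in siYAP. RSRC2 had 663 mean counts in NC against 1035.5 in GAS5 (0.76) and PNN had 1384.5 and 2000.5 (0.65), while LUC7L3 had 2088 in NC and 1149 in siYAP (-0.78) and TRA2A, the paralog of TRA2B, had 2770.5 and 1651 (-0.66). Among 10 early spliceosome genes the medians were 0.10 and -0.05, with U2AF2 (0.58) and SNRNP70 (0.34) furthest in GAS5 and DDX46 (-0.70) and SF3B1 (-0.32) in siYAP. Among 23 hnRNP genes, whose proteins often oppose SR proteins, the medians were 0.06 and -0.19, with PTBP2 (0.67) and HNRNPDL (0.30) furthest in GAS5 and HNRNPUL2 (-0.71) and HNRNPR (-0.65) in siYAP. No gene of either list passed 2-fold. The members' median was higher than that of each of these 4 lists in GAS5 and lower in siYAP, and the signs of all these medians held under each scaling tried.

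In the promoters of RefSeq (GRCh38.p14, 250 bases before to 50 after the start), 0 of the 9 members with an entry held the letters GGAATG or their complement CATTCC, the core of the site of TEAD, the DNA-binding partner of YAP, against 14.1% of all 27305 promoters. SRSF2 has no entry. No match says only that these letters are not in this window.

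The group totals were 27206123 mean counts in NC, against 25521577 in GAS5 and 26298036 in siYAP. YAP1, the target of the siRNA, had 3480 mean counts in NC, against 2679 in GAS5 and 1444 in siYAP, with log2 fold changes of -0.26 and -1.18. GAS5 itself is not analysed here, so overexpression was not checked. Of 10 colon epithelium markers, EPCAM (5958.5 in NC), CDH1, KRT8, KRT18 and CDX2 were well counted in NC, KRT20 had 13, and the epithelial markers CDX1, VIL1 and CDH17 and the stem cell marker LGR5 had 0 to 1. The markers kept by the filter ran from -0.43 (CDH1) to 0.34 (KRT8) in GAS5 and from -0.08 (EPCAM) to 0.45 (KRT8) in siYAP on the log2 scale. Of 9 markers of other cells, PTPRC, CD3E, COL3A1 and PECAM1 had 0 to 1 in NC, and ACTA2, COL1A1, CD68, DES and VWF had 31 to 378.5. The latter 5 ran from -0.68 (DES) to 0.72 (ACTA2) in GAS5 and from 0.09 (CD68) to 0.99 (ACTA2) in siYAP, and the list summed to 1001.5 mean counts in NC, against 1293 in GAS5 and 1439.5 in siYAP. Their part in the values above was not tested.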

How the data were processed

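Expression was measured by strand-specific lncRNA-sequencing in 2 libraries each of NC, GAS5 and siYAP HCT116 cells. The deposited expected counts are estimated counts per transcript, for which the authors took the mean of the libraries in each group, and they are not normalized. The deposited FPKM values were averaged by the authors in the same way, with 0.001 in place of 0. TopHat2 2.1.1 is named in the submitters' processing notes, and the counting tool and genome build are not given in the sources used here. The authors' columns of fold changes, p-values, FDR and significance calls were not used.

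Transcripts were joined by identifier, and gene sums add the transcripts of a symbol, read in capitals from the siYAP table. The members and gene lists were chosen with earlier results of these data known. Genes were named by rule: all members, their transcripts with at least 5% of the counts or past 2-fold, YAP1, and of the kinase and transport, other SR, spliceosome and hnRNP lists the genes past 2-fold or else the 2 furthest from NC. The forms compared within a gene were chosen after their values were seen.

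Counts were filtered with filterByExpr and scaled by TMM (edgeR 4.0.16, R 4.3.3) on the NC mean and the treated mean, separately for gene sums and for transcripts. The planned edgeR quasi-likelihood test needs separate libraries and was not run. Calculations used Python 3.11.15, pandas 2.3.3 and scipy 1.17.1, and the steps were tested on simulated data. Structures and sequences are from GENCODE 29 (GRCh38), matched by transcript identifier. Group totals lay between 25521577 and 27206123 mean counts. Alternatives were DESeq2 1.42.0 size factors, total counts, no filter, a prior count of 0.5, mean FPKM with a pseudocount of 0.1, shares of FPKM, stricter count minimums and a threshold of 10 points. A threshold of 1.5-fold, backgrounds of at least 1000 counts and Ensembl transcripts only were added after the data were seen.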

Additional observations from a re-analysis of the deposited data

How the results depend on the processing

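No paired analysis was possible because the deposited tables hold 1 mean per group and no value for a single library. For the same reason leaving out a replicate and the DESeq2 test were not run. At the level of the gene, 0 members passed 2-fold in either comparison under each alternative, and 2 passed 1.5-fold in GAS5, a threshold chosen after the data were seen. When 10 mean counts were required in each of the 3 groups, 3 member transcripts were past 2-fold in GAS5 and 3 in siYAP, in place of 6 and 5, since fewer transcripts were counted. With no low-count filter there were 8 in siYAP. The share of all transcripts past 2-fold was not computed under these settings, so these counts have no background beside them. The log2 fold change of the sum over all members in GAS5 was 0.27 by total counts and 0.32 for Ensembl transcripts only. In siYAP it was -0.23 by total counts and -0.28 by the ratio of mean FPKM. Of 120 alternative fold changes of single members, 4 differed in sign, those of SRSF4 and SRSF6 given above, and the largest difference was 0.13. No member reached a share shift of 20 percentage points under the alternatives, nor 10 points on shares of all counts. Depth is not what limits the statements on whole genes, where counting intervals are narrow, but transcripts under about 50 mean counts have wide ones, and the missing values of single libraries limit all of them.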
